A study of Mus musculus with 6 samples.

Results

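The genes described here are the 4 inhibitors of DNA binding (Id1, Id2, Id3 and Id4) and 6 genes of the transcription factor network that these inhibitors act on: the E proteins Tcf3, Tcf4 and Tcf12, the tissue-restricted factors Tal1 and Lyl1, and the bridging factor Lmo2. The rule takes them by gene symbol alone, but the set was proposed with earlier results of these data known. All 10 were found among the 24411 genes of the deposited table. RNA had been sequenced in bulk from 6 libraries, 3 of UV2 (also written UV♀2), a mouse endothelial line of strain (BALB/c x C57BL/6)F1, and 3 of bEnd.3, a BALB/c line from brain endothelium that carries the middle T gene of polyomavirus. Both lines had been grown to confluence on 10-cm dishes and then kept without serum for 3 days. Each group is a single line, and line, strain and any clonal history cannot be told apart. The labels do not state whether replicate libraries were grown as separate cultures, and the spread that p-values here rest on may be technical only. Any effect of strain on mapping to the mm10 reference was not tested.

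As background, basic helix-loop-helix (bHLH) factors bind DNA as pairs, most often an E protein with a tissue-restricted partner, at a short motif called the E-box. ID proteins have the helix-loop-helix part that forms pairs but lack the basic part that touches DNA, so an E protein bound to an ID protein is kept off its sites. In endothelium and in blood-forming cells TAL1 or LYL1, an E protein, LMO2, LDB1 and a GATA factor are known to form one complex on DNA, and the ID genes are classical target genes of bone morphogenetic protein (BMP) signalling through SMAD1 and SMAD5.

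The 3 ID transcripts that differed between the lines encode closely related proteins, and the stretch of 120 coding bases that the ID genes have most in common is shown because it shows how far the paralogs resemble each other at the part they share. It lies in the first exon of each gene (GENCODE M21, build GRCm38) and is read 5′ to 3′ on the coding strand. Capitals mark the bases that differ from Id1, which is therefore all in lower case. The Id1 stretch is at chr2:152736518-152736637 on the plus strand, that of Id2 at chr12:25095783-25095902 on the minus strand, and that of Id3 at chr4:136144002-136144121 on the plus strand.
Id1: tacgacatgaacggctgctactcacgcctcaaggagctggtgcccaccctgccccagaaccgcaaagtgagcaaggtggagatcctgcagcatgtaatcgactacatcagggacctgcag
Id2: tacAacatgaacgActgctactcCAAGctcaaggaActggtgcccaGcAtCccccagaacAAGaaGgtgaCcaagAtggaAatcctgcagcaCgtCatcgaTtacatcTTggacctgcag
Id3: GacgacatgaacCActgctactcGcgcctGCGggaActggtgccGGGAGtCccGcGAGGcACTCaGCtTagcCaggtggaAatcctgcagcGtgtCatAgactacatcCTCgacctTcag
Id2 differed from Id1 at 22 of these bases (81.7% the same) and Id3 at 35 (70.8% the same). Over whole coding transcripts the longest run of bases shared without a mismatch was 12 between Id1 and Id3, 11 between Id1 and Id2 and 19 between Id2 and Id3. Every member except Tcf4 had whole-number counts in all 6 libraries.

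Levels are CPM (counts scaled to TMM-adjusted library totals), and differences are log2 fold changes, UV2 minus bEnd.3, with standard errors (SE). They were tested with edgeR's quasi-likelihood test over all 12720 genes with enough counts, with Benjamini-Hochberg adjustment and calls at an adjusted p under 0.05. Total expected counts were 21306441 to 26769149 in the UV2 libraries and 21944529 to 28748128 in the bEnd.3 libraries. Endothelial markers were present: all 11 of a list were detected, and they summed to 11960 to 13610 CPM in UV2 and 12310 to 13050 CPM in bEnd.3. Of the 11, Tie1 was higher in UV2, Emcn, Egfl7, Erg, Sox17 and Sox18 were lower, and 5 missed the threshold. Among them Cdh5, the adherens junction cadherin, stood at 4039 ± 149.8 CPM in UV2 and 3958 ± 273 CPM in bEnd.3 (SD, n = 3 each). Pecam1, the junction protein CD31, stood at 2166 ± 52.1 CPM in UV2 and 1951 ± 73.4 CPM in bEnd.3 and did not pass the test (adjusted p = 0.0927), but was called higher by DESeq2 (0.0347) and with the median of neighbouring genes removed (0.00665). Kdr, a VEGF receptor, stood at 1599 ± 300.8 CPM in UV2 and 1554 ± 240.0 CPM in bEnd.3. Emcn stood at 280.9 ± 29.2 CPM in UV2 and 780.2 ± 57.2 CPM in bEnd.3, and Sox17 at 0.324 ± 0.0911 CPM in UV2 and 59.9 ± 6.51 CPM in bEnd.3. These and the other markers below were named after their values were seen. Because Tal1, Lyl1 and Lmo2 are also genes of blood cells, 12 blood markers were read beside them. The pan-leukocyte gene Ptprc averaged 0 CPM in UV2 and 0.0136 CPM in bEnd.3, the myeloid regulator Spi1 averaged 0.0269 CPM in UV2 and 0 CPM in bEnd.3, and the erythroid regulator Gata1 had 0 counts in all 6 libraries. The blood list summed to 261 to 354 CPM in UV2 and 102 to 169 CPM in bEnd.3, nearly all of it Cd68, a lysosomal protein that macrophages are rich in but that other cells also make. Of 5 tested blood markers Cd68 and Hba-a1 were higher in UV2, Itga2b was lower and Csf1r and Gp1ba did not pass. Hba-a1 had 0.296, 0.776 and 3.93 CPM in the UV2 libraries, against 0.0449, 0.448 and 0.0679 CPM in the bEnd.3 libraries. These libraries overlapped, and UV2 replicate 3 held most of the Hba-a1 signal. The 7 fibroblast markers summed to 27.5 to 67.6 CPM in UV2 and 3.23 to 3.54 CPM in bEnd.3, and 5 of them stayed under 1 CPM in all libraries. The other two, Col3a1 and Pdgfra, were higher in UV2, with Col3a1 at 32.05 ± 16.6 CPM in UV2 and 0.954 ± 0.672 CPM in bEnd.3. The 8 mural cell markers summed to 3.70 to 6.25 CPM in UV2 and 0.529 to 0.713 CPM in bEnd.3, and Des and Cnn1 had no count. Of these only Pdgfrb was tested, and it was higher in UV2. The 7 markers of glia and neurons summed to 3.05 to 3.80 CPM in UV2 and 0.224 to 0.611 CPM in bEnd.3, with Aqp4, Olig2 and Sox10 at 0. Tubb3, the only one tested, was higher in UV2, while Rbfox3 averaged 0 CPM in UV2 and 0.272 CPM in bEnd.3. The 6 epithelial markers summed to 0.127 to 0.501 CPM in UV2 and 0 to 0.163 CPM in bEnd.3, with Epcam and Krt5 at 0. The epithelial sums overlapped and no epithelial marker was tested. The part of such cells in the results was not tested. In bulk RNA, fewer cells expressing a gene and less RNA per cell cannot be told apart.

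Of the 10 genes 9 had enough counts to be tested, and UV2 had 4 higher (Id3, Lyl1, Tcf3 and Tal1), 3 lower (Id1, Id2 and Lmo2) and 2 that missed the threshold (Tcf4 and Tcf12). Of all tested genes 33.9% were called higher and 33.3% lower, so a share of called genes of this size, 67.1% in either direction, was common to the whole table. No overlap between UV2 and bEnd.3 libraries was seen for 7 of the 9 genes, against 73.2% of all tested genes. Beyond 2-fold, by edgeR's glmTreat, 4 of the 9 were called (Id1, Id3, Lyl1 and Lmo2), against 19.4% of all tested genes. Id3 and Lyl1 were the 2 higher ones, against 10.6% of all tested genes, and Id1 and Lmo2 the 2 lower ones, against 8.81%. The median absolute log2 fold change was 1.24 over the 9 genes and 0.50 over all tested genes. Their median signed log2 fold change was 0.11, against -0.01 over all tested genes.

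**Figure D1:**
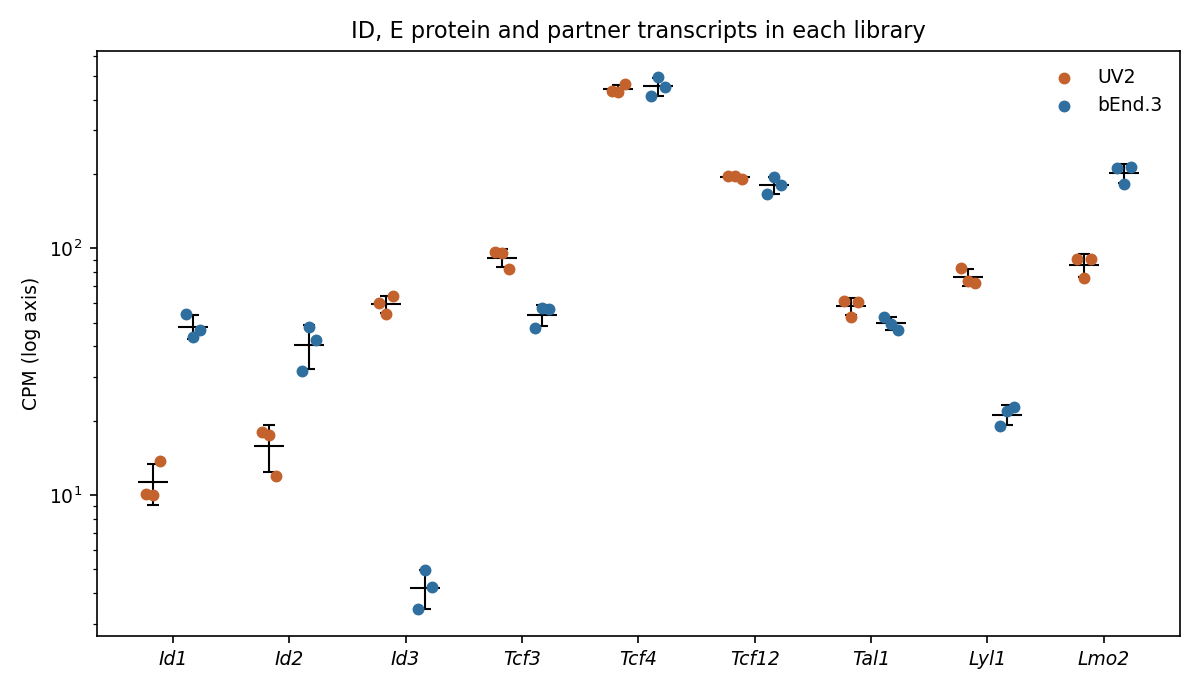
Level of 9 genes in each library in CPM on a log axis, with UV2 libraries in orange and bEnd.3 libraries in blue, 3 each; black bars give the mean and its SD. Id3 and Lyl1 stand above bEnd.3 in all UV2 libraries, Id1, Id2 and Lmo2 stand below, and the points of Tcf4 and Tcf12 overlap. Id4 is left out because it had 6 counts in all.

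The ID inhibitors changed places between the lines. Id3, a BMP and serum target, had 60.1, 54.4 and 63.9 CPM in the UV2 libraries, against 3.45, 4.97 and 4.24 CPM in the bEnd.3 libraries. The groups were far apart, and the lowest UV2 library stood well above the highest bEnd.3 library. The log2 fold change was 3.81 (SE 0.14, adjusted p = 4.95e-07), and 3.92% of all tested genes rose as much or more. Id3 lies on chromosome 4 (136143822 to 136145392), where many neighbours were also higher in UV2. The 198 tested genes within 10 Mb of it had a median log2 fold change of 0.69, and with that median removed Id3 stood at 3.13 (adjusted p = 1.27e-06).

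Id1, the ID gene most studied in new blood vessels, went the other way. It had 10.1, 10.03 and 13.7 CPM in the UV2 libraries, against 54.1, 43.6 and 46.8 CPM in the bEnd.3 libraries. The groups did not overlap, and the log2 fold change was -2.09 (SE 0.15, adjusted p = 1.24e-05), a level 4.27-fold lower in UV2. Only 5.56% of all tested genes fell as much or more. Id1 is on chromosome 2 (152736251 to 152737410), where the 144 tested genes within 10 Mb had a median log2 fold change of -0.24.

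Id2, which pairs with E proteins in many developing tissues, had 18.04, 17.5 and 11.9 CPM in the UV2 libraries, against 31.7, 47.9 and 42.4 CPM in the bEnd.3 libraries. It was lower in UV2 (a log2 fold change of -1.37 with SE 0.20, adjusted p = 0.000541), but not called beyond 2-fold (adjusted p = 0.0729). Id2 was the most variable tested member of the group, with a coefficient of variation of 21.4% over the UV2 libraries and 20.3% over the bEnd.3 libraries. Without bEnd.3 replicate 1, its lowest bEnd.3 library, Id2 was called beyond 2-fold (adjusted p = 0.0143). With total counts and all libraries kept it was also called beyond 2-fold (adjusted p = 0.0482), but in no other alternative. Id2 is on chromosome 12 (25093799 to 25096092). Id4, best known from brain and mammary gland, held 2 counts over the UV2 libraries and 4 over the bEnd.3 libraries and was not tested. Counts this low sit near the limit of 3 counts that a count of 0 allows, and no fold is given.

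Within a library the ratio of Id3 to Id1 counts needs no scaling between libraries. It was 5.98, 5.42 and 4.67 in UV2, against 0.0638, 0.114 and 0.0907 in bEnd.3, so the more abundant gene of the pair was Id3 in each UV2 library and Id1 in each bEnd.3 library.

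To compare genes with each other, CPM were divided by the mean length of the coding transcripts of each gene in GENCODE M21 (RPKM). On this scale the ID transcripts summed to 69.5, 64.7 and 71.6 in the UV2 libraries and to 77.1, 79.8 and 78.3 in the bEnd.3 libraries. The sum thus differed far less than its parts. Id3 made up 67.6%, 65.8% and 69.8% of it in UV2, against 3.50%, 4.87% and 4.24% in bEnd.3. Id1 made up 13.8%, 14.8% and 18.3% in UV2, against 67.1%, 52.2% and 57.1% in bEnd.3, and Id2 made up 11.9% to 19.3% in UV2, against 29.4% to 42.9% in bEnd.3 (7.32% to 12.3% in UV2 and 20.8% to 32.1% in bEnd.3 with the union of exons as length). The sums of the lines did not overlap with this length, but they did with the union of exons as length, a choice made after seeing the data, at 58.4 to 66.7 in UV2 and 61.03 to 62.4 in bEnd.3. The shares turned the same way with either length, and Id3 then made up 72.9% to 75.0% in UV2 and 4.33% to 6.35% in bEnd.3. These sums were not tested, since the genes had been chosen with results of these data known.

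**Figure D2:**
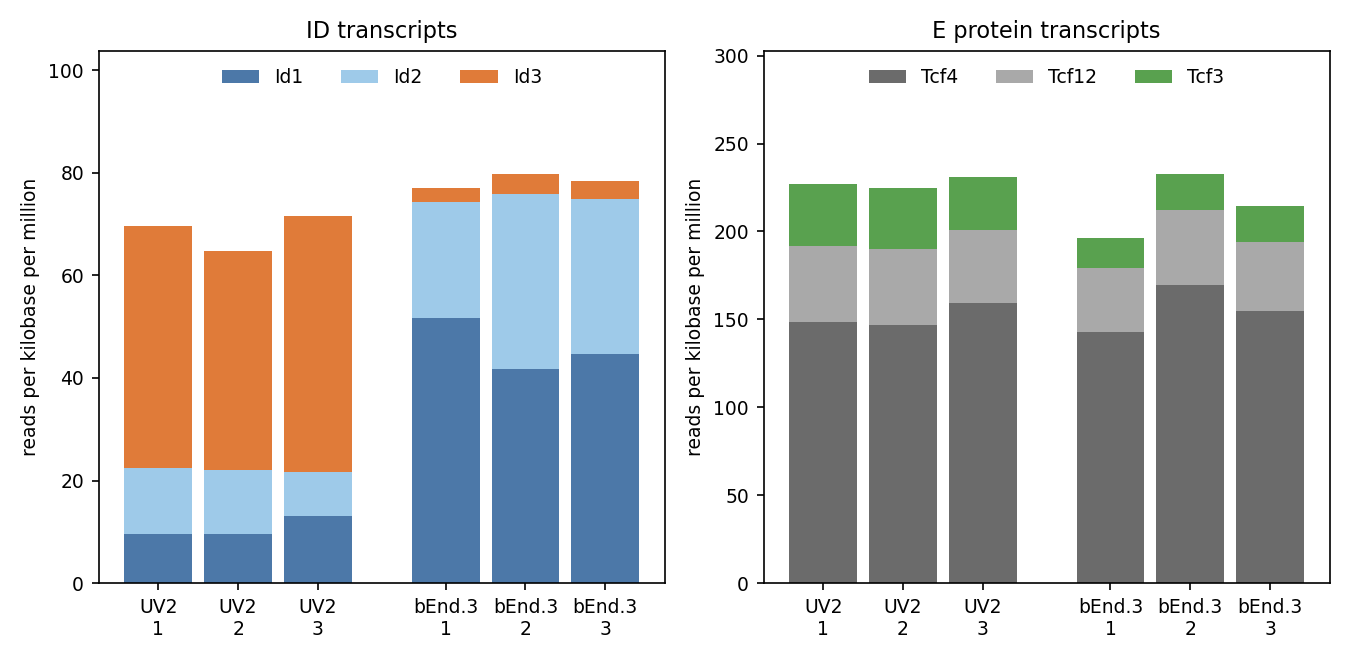
Stacked RPKM of ID transcripts (left panel) and E protein transcripts (right panel) in each library, UV2 replicates 1 to 3 followed by bEnd.3 replicates 1 to 3. The ID columns are of like height, 64.7 to 71.6 in UV2 and 77.1 to 79.8 in bEnd.3, while Id3 fills most of them in UV2 and Id1 with Id2 fills them in bEnd.3.

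The bases upstream of Id3 and Id2 are shown because these inhibitors moved in opposite directions and their annotated starts are single. Id1, which fell further than Id2, is not shown because the promoter sequences used held no entry for it. Each sequence is the 250 bases before the RefSeq start (build GRCm38.p6), read 5′ to 3′ on the strand of the gene, with capitals marking an E-box. That of Id3 is chr4:136143572-136143821 on the plus strand and that of Id2 is chr12:25096093-25096342 on the minus strand.
Id3: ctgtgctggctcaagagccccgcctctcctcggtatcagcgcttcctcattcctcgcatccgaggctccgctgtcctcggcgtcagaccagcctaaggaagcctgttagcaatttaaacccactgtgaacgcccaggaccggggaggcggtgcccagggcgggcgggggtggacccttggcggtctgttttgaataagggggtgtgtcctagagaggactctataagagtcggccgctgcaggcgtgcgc
Id2: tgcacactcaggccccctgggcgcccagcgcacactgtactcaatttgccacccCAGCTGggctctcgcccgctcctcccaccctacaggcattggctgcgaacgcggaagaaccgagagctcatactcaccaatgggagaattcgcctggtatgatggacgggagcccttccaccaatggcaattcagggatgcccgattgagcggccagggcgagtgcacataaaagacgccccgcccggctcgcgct
Both windows had 62.8% G and C and 18 CpG sites, against a median of 52.4% and 6 over 32851 promoters. An E-box (CANNTG, the same on both strands) was found once upstream of Id2, at -196 to -191 from the start, and not in the Id3 window, and 66.2% of all promoters hold one. The SMAD-type GC element GGCGCC, also the same on both strands and held by 9.59% of promoters, was found once upstream of Id2, at -231 to -226. A GC box (GGGCGG on either strand, held by 32.7% of promoters) was found at 2 overlapping places upstream of Id3, from -94 to -85, and once upstream of Id2, at -16 to -11. These are matches of letters only, and no data here bear on binding.

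Of the E proteins, Tcf3 passed the test, and Tcf4 and Tcf12 did not. Tcf3, which encodes E12 and E47, had 96.9, 95.6 and 82.6 CPM in the UV2 libraries, against 47.7, 57.2 and 56.7 CPM in the bEnd.3 libraries. The groups did not overlap and Tcf3 was higher in UV2 (a log2 fold change of 0.77 with SE 0.10, adjusted p = 0.000263), a fold of 1.70. It is on chromosome 10 (80409541 to 80433976), where the neighbours had a median log2 fold change of 0.07.

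Tcf4, which encodes E2-2 and restrains sprouting in cultured human endothelium, was the E protein with the most counts. It had 433, 428 and 463 CPM in the UV2 libraries, against 415, 493 and 449 CPM in the bEnd.3 libraries. The groups overlapped, and the log2 fold change of -0.04 (SE 0.08, adjusted p = 0.712) had a 95% interval of -0.23 to 0.15. Its sign turned without bEnd.3 replicate 2 (0.04) and with the median of neighbouring genes removed (0.03). Its deposited values were whole numbers in UV2 but not in bEnd.3 (9255.61, 12102.03 and 13237.66 expected counts), and RSEM gives such values where reads map to more than one place.

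Tcf12, which encodes HEB, had 195.7, 195.5 and 190.8 CPM in the UV2 libraries, against 165, 194 and 179.8 CPM in the bEnd.3 libraries. The lowest UV2 library lay below the highest bEnd.3 library, and the log2 fold change was 0.11 (SE 0.07, 95% interval -0.06 to 0.28, adjusted p = 0.224). Genes around Tcf12 on chromosome 9 (71844252 to 72111893) were lower in UV2, with a median log2 fold change of -0.23 over 116 genes. With that median removed, Tcf12 was called higher (log2 fold change 0.34, adjusted p = 0.00494). Runs of shared bases were compared only within the ID genes, within the E proteins and between Tal1 and Lyl1. Of these pairs Tcf4 and Tcf12 had the longest run, 47, and reads inside it do not tell the pair apart. Tcf12 counts were nonetheless whole numbers in every library. The rows named Tcf3 and Tcf4 are the E proteins and not the Wnt effectors once called by these names, since Tcf7l1 and Tcf7l2 have rows of their own.

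In counts alone, the Tcf3 to Tcf4 ratio was 0.224, 0.223 and 0.178 in the UV2 libraries, against 0.115, 0.116 and 0.126 in the bEnd.3 libraries. Per length, Tcf3 made up 15.5%, 15.4% and 12.9% of E protein transcripts in UV2, against 8.79%, 8.88% and 9.56% in bEnd.3. Tcf4 made up 65.4% to 68.9% in UV2 and 72.0% to 72.7% in bEnd.3, and Tcf12 made up 18.2% to 19.2% in UV2 and 18.4% to 18.5% in bEnd.3. The E protein sums were 225 to 231 RPKM in UV2 and 196 to 233 in bEnd.3, and these ranges overlapped. These values depend on the length used. With the union of exons, Tcf3 made up 29.1% to 33.1% in UV2 and 21.2% to 22.7% in bEnd.3, and Tcf4 made up 35.3% to 39.1% in UV2 and 43.2% to 44.2% in bEnd.3. Tcf12 then made up 31.5% to 31.8% in UV2 and 34.0% to 34.6% in bEnd.3, and the sums, 88.5 to 91.4 in UV2 and 70.3 to 83.3 in bEnd.3, did not overlap. The ratio of summed ID to summed E protein transcripts was 0.306, 0.288 and 0.310 in UV2, against 0.393, 0.343 and 0.365 in bEnd.3. With the union of exons as length the ratio was 0.644 to 0.754 in UV2 and 0.734 to 0.888 in bEnd.3, with overlap between the lines.

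The 2 tissue-restricted partners differed in how far they moved. Lyl1, a close relative of Tal1 that keeps mature vessels stable in mice, had 83.5, 73.6 and 72.2 CPM in the UV2 libraries, against 18.97, 21.9 and 22.7 CPM in the bEnd.3 libraries. Every UV2 library was more than 3 times the highest bEnd.3 library. The log2 fold change was 1.85 (SE 0.10, adjusted p = 2.67e-06), a fold of 3.61, and 8.07% of all tested genes rose as much or more. Lyl1 is on chromosome 8 (84701423 to 84704716), and 4 of its 1800 exon bases overlap Nfix on the opposite strand. Nfix was lower in UV2 (12.9 ± 2.05 CPM in UV2 and 26.5 ± 6.07 CPM in bEnd.3, SD, n = 3 each).

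Tal1, a master regulator of blood formation that is also needed for remodelling of embryonic vessels, had 61.4, 52.8 and 60.5 CPM in the UV2 libraries, against 52.6, 49.5 and 46.9 CPM in the bEnd.3 libraries. The lowest UV2 library stood just above the highest bEnd.3 library. The difference was small (log2 fold change 0.23 with an SE of 0.08, adjusted p = 0.0383), and its call was lost in 6 of 14 alternatives, among them total counts (adjusted p = 0.12) and the removal of the median of neighbouring genes (adjusted p = 0.0527). It was also lost without UV2 replicate 1 (adjusted p = 0.116), UV2 replicate 3 (0.105), bEnd.3 replicate 2 (0.0926) or bEnd.3 replicate 3 (0.111). Tal1 is also on chromosome 4 (115056426 to 115071755), but its 141 neighbours had a median log2 fold change of 0.02. Within libraries the ratio of Lyl1 to Tal1 counts was 1.36, 1.39 and 1.19 in UV2, against 0.361, 0.442 and 0.484 in bEnd.3.

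Lmo2, the LIM-only protein that joins TAL1 or LYL1 to LDB1 and GATA factors, had 90.7, 75.4 and 90.7 CPM in the UV2 libraries, against 210.5, 181.7 and 213 CPM in the bEnd.3 libraries. All UV2 libraries were far below the lowest bEnd.3 library. Lmo2 was lower in UV2 (a log2 fold change of -1.24 with SE 0.10, adjusted p = 2.53e-05), a level 2.36-fold lower. It was called beyond 2-fold (adjusted p = 0.0309), but not with DESeq2 (adjusted p = 0.242), limma-voom (0.124) or the median of neighbouring genes removed (0.052). Leaving out UV2 replicate 2 (0.118), bEnd.3 replicate 1 (0.0669) or bEnd.3 replicate 3 (0.0837) also ended that call. Lmo2 is on chromosome 2 (103957903 to 103981878). The ratio of Lmo2 to Lyl1 counts was 1.09, 1.03 and 1.26 in the UV2 libraries, against 11.1, 8.31 and 9.41 in the bEnd.3 libraries.

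**Figure D3:**
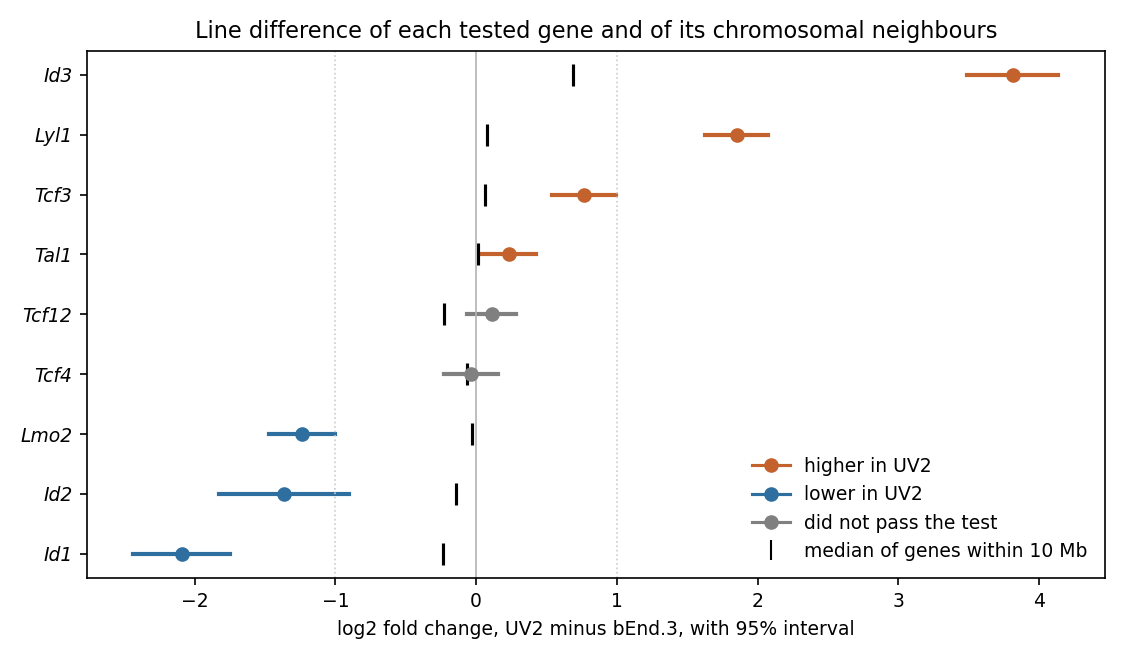
Log2 fold change of the 9 tested genes, UV2 minus bEnd.3, with 95% intervals from edgeR's quasi-likelihood fit; orange is higher in UV2, blue lower, grey not called, and black ticks give the median of the tested genes within 10 Mb. Id3 stands at 3.81 with neighbours at 0.69, Id1 at -2.09 with neighbours at -0.24, and dotted lines mark a 2-fold difference.

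Per length, the order of levels in UV2 was Tcf4 (151.7 ± 6.50 RPKM, SD, n = 3), Lmo2 (54.2), Id3 (46.5), Tcf12 (42.7), Lyl1 (42.5), Tcf3 (33.2), Tal1 (16.2), Id2 (11.3) and Id1 (10.8). The ranges of neighbours in this order overlapped between Lmo2 and Id3, Id3 and Tcf12, Tcf12 and Lyl1, and Id2 and Id1. In bEnd.3 the order of levels was Tcf4 (155.6 ± 13.4), Lmo2 (127.7), Id1 (46.02), Tcf12 (39.6), Id2 (29.1), Tcf3 (19.5), Tal1 (13.8), Lyl1 (11.8) and Id3 (3.30). There only the neighbours Id1 and Tcf12 overlapped. Id3 was thus in place 3 of 9 in UV2 and last of the tested genes in bEnd.3. The order depends on the length used. With the union of exons Id3 was in place 1 in UV2 and again last in bEnd.3, Lmo2 was in place 1 and Id1 in place 2 in bEnd.3, Id1 stood above Id2 in UV2, and Lyl1 stood above Tal1 in bEnd.3. Tcf4, which has 24 coding transcripts in this annotation, moved the most. With the union of its exons (13366 bases) it stood at 33.0 in UV2 and 33.9 in bEnd.3, in place 4 in UV2 and place 3 in bEnd.3.

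Among other proteins of the TAL1-LMO2 complex, genes were called in both directions, at shares near those of all tested genes (33.9% higher and 33.3% lower). Of 10 tested genes of the list, UV2 had 4 higher and 3 lower, 3 did not pass the test, and the median log2 fold change was 0.29. The higher genes were the GATA factors Gata2 (113.8 ± 4.69 CPM in UV2 and 45.3 ± 3.71 CPM in bEnd.3) and Gata3 (3.12 ± 0.691 CPM in UV2 and 0.862 ± 0.175 CPM in bEnd.3), the LDB1-binding Ssbp3 (114.3 ± 1.62 CPM in UV2 and 42.2 ± 1.63 CPM in bEnd.3) and the Lmo2 relative Lmo4. Gata3 rose the most (log2 fold change 1.84, SE 0.26, adjusted p = 0.000448). Ldb1, the dimerising core of the complex, fell the most, to 116.5 ± 2.95 CPM in UV2, against 188 ± 31.1 CPM in bEnd.3 (log2 fold change -0.69, SE 0.12, adjusted p = 0.00122). Its relative Ldb2 and the co-repressor Cbfa2t3 were the other lower genes. The calls of Ldb2 (adjusted p = 0.06 and 0.0577) and Cbfa2t3 (adjusted p = 0.121 and 0.0988) were both lost without UV2 replicate 1 or without bEnd.3 replicate 2. That of Cbfa2t3 was also lost without UV2 replicate 2 (0.0775) or bEnd.3 replicate 3 (0.118). Genes of this list other than Gata3 and Ldb1 were named after their values were seen.

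Of 44 other tissue-restricted bHLH genes that can pair with E proteins, 43 stayed under 1 CPM in all 6 libraries and 26 had no count. Tcf15 was the single one tested. It had 0.275 ± 0.155 CPM in UV2 and 2.09 ± 0.796 CPM in bEnd.3 (SD, n = 3 each) and was lower in UV2 (a log2 fold change of -2.88 with SE 0.46, adjusted p = 0.000869). Tal1 and Lyl1 were thus the class members with substantial counts in both lines.

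BMP receptors and SMADs, upstream of the ID genes, were also called in both directions at about the shares of all tested genes (33.9% higher and 33.3% lower). Of 12 tested genes, UV2 had 4 higher and 4 lower, and 4 missed the threshold, with a median log2 fold change of 0.09. The type I receptor Bmpr1a rose the most, to 9.66 ± 1.95 CPM in UV2, against 0.354 ± 0.118 CPM in bEnd.3 (adjusted p = 4.05e-06). Its log2 fold change was 4.75 (SE 0.27), or 3.97 with the median of neighbouring genes removed. The endothelial type I receptor Acvrl1, the signal transducer Smad1 and the TGF-beta receptor Tgfbr1 were the other higher genes. Tgfbr2, the TGF-beta type II receptor, fell the most, to 646 ± 52.2 CPM in UV2, against 1482 ± 356 CPM in bEnd.3 (log2 fold change -1.20, SE 0.18; adjusted p = 0.000527). In addition, the co-receptor Eng and the type II receptors Bmpr2 and Acvr2a fell as well. Acvr1, Acvr2b, Smad4 and Smad5 did not pass the test. With the median of neighbouring genes removed, Smad5 was called lower (log2 fold change -0.39, adjusted p = 0.00292) and Acvr1 higher (0.33, adjusted p = 0.0333).

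Other BMP-SMAD target and feedback genes were also called in both directions, where 33.9% of all tested genes were higher and 33.3% lower. Of 11 tested genes 5 were higher in UV2 (Hey1, Nog, Smad6, Hes1 and Smurf1), 3 were lower (Hey2, Skil and Bambi) and 3 did not pass. Bambi (adjusted p = 0.0365) lost its call in 5 of 14 alternatives. Ski, which did not pass, was called lower with the median of neighbouring genes removed (log2 fold change -0.69, adjusted p = 7.56e-05). Smad7 also did not pass, but was called lower without bEnd.3 replicate 1 (-0.61, adjusted p = 0.0325). The median log2 fold change was -0.01. Smad6, an inhibitory SMAD that BMP signalling induces, had 31.6 ± 5.80 CPM in UV2 and 12.3 ± 6.33 CPM in bEnd.3 (log2 fold change 1.37, SE 0.32, adjusted p = 0.0063). Hey1 and Hey2, bHLH repressors that both Notch and BMP signals induce, moved apart. Hey1 had 41.3 ± 16.03 CPM in UV2 and 0.752 ± 0.331 CPM in bEnd.3. Hey2 had 0.102 ± 0.0375 CPM in UV2 and 1.63 ± 0.740 CPM in bEnd.3 (log2 fold change -3.98, SE 0.53, adjusted p = 0.00034). Hey2 held only 7 counts over the UV2 libraries, so the size of its fold is uncertain. It was not tested under the minimum of 1 CPM in 3 libraries. Hes1, Hey1 and Hey2 also belong to the list of HES, HEY and BHLHE40 repressors, of which 3 of 6 tested genes were higher, 2 were lower and 1 did not pass. Its remaining called genes, Bhlhe41 (12.8 ± 2.05 CPM in UV2 and 3.75 ± 0.587 CPM in bEnd.3) and Bhlhe40 (50.7 ± 8.30 CPM in UV2 and 92.4 ± 5.92 CPM in bEnd.3), were also a pair of relatives that moved in opposite directions.

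Of 10 genes reported in other systems to lie downstream of TAL1-LMO2, E proteins or ID1, UV2 had 4 higher and 1 lower, and 5 missed the threshold. Over all tested genes the shares were 33.9% higher and 33.3% lower. The median log2 fold change was 0.41, against -0.01 over all tested genes. Thbs1, an inhibitor of vessel growth that ID1 represses in mouse cells, had 40.97 ± 17.3 CPM in UV2 and 5.30 ± 2.77 CPM in bEnd.3 (log2 fold change 2.97, SE 0.44, adjusted p = 0.000558). The cell cycle inhibitor Cdkn2a had 28.9 ± 4.22 CPM in UV2 and 10.3 ± 1.64 CPM in bEnd.3, and Cdkn2b had 18.9 ± 1.77 CPM in UV2 and 12.3 ± 2.44 CPM in bEnd.3. Cdkn1a, the cell cycle inhibitor p21 that E proteins can induce, was the lower gene, at 27.8 ± 4.16 CPM in UV2 and 413 ± 21.9 CPM in bEnd.3 (log2 fold change -3.89, SE 0.12, adjusted p = 2.25e-07). Angpt2, a Tie2 ligand reported as a TAL1 complex target in human endothelium, had the largest rise of this list, to 113.4 ± 13.5 CPM in UV2, against 6.23 ± 4.99 CPM in bEnd.3 (adjusted p = 0.000113). Its log2 fold change was 4.22 (SE 0.46), or 5.07 if bEnd.3 replicate 1 was left out. Cdh5, Kdr, Esam, Tek and Cdkn1c did not pass, and Tek (adjusted p = 0.0706) was called higher with the replicate number as a block (adjusted p = 0.00468), with DESeq2 (0.0283) and without bEnd.3 replicate 3 (0.017). Esam (adjusted p = 0.0964) was called lower with total counts (0.0396). Genes of this list other than Angpt2, Cdkn1a, Cdh5 and Kdr were named after their values were seen, as were the genes of the BMP lists other than Bmpr1a, Tgfbr2, Hey1 and Hey2, and Bhlhe40 and Bhlhe41.

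**Figure D4:**
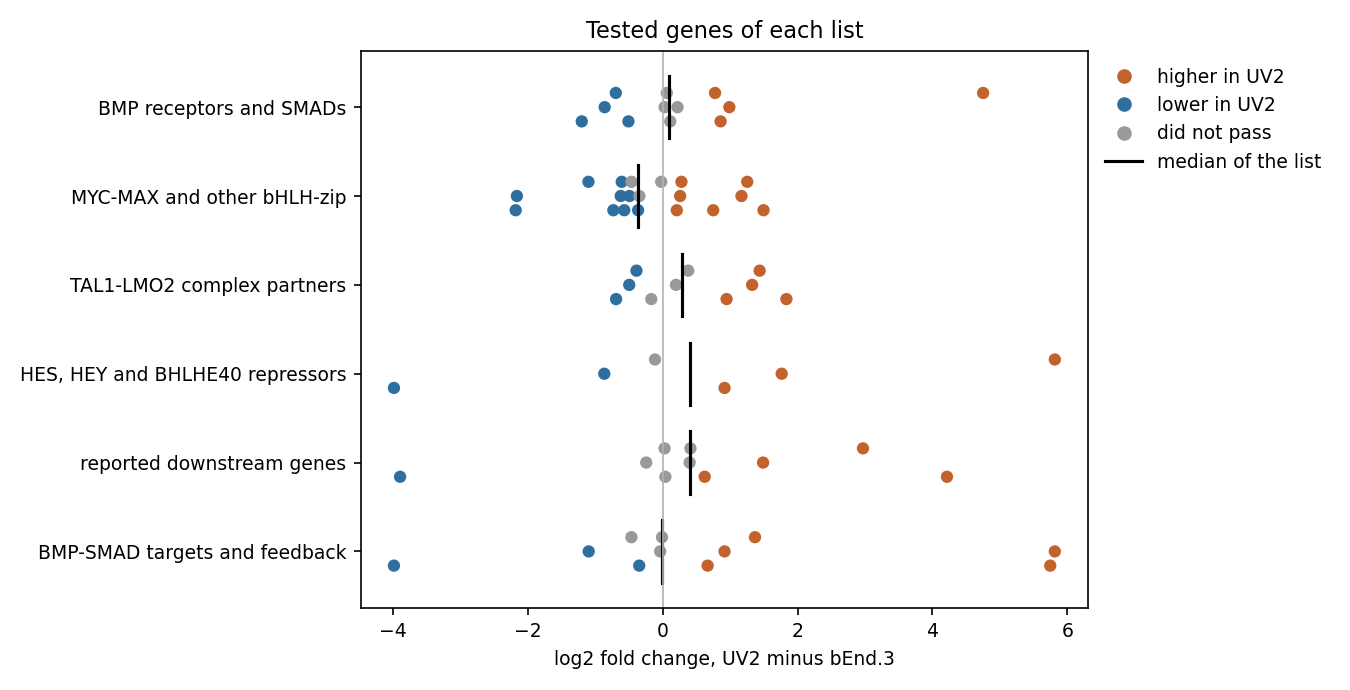
Log2 fold change, UV2 minus bEnd.3, of each tested gene in 6 gene lists; points are genes, orange where higher in UV2, blue where lower and grey where the test was not passed, and black bars give the median of the list. The medians lie between -0.36 and 0.41, and each list holds genes on both sides of 0.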

How the data were processed

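Libraries were grouped by the cell line in the sample titles. Per the labels' protocols, cells were detached with 0.05% trypsin-EDTA and RNA was prepared with an RNeasy Micro Kit and a TruSeq Stranded mRNA kit. Trim Galore, STAR, RSEM and mm10 are named in the submitters' processing notes. For versions, annotation and strand setting, the sources used here give nothing. In the table, the authors deposited expected counts per gene, not normalized, with 8.23% to 8.73% of genes per library not whole.

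Counts were rounded, filtered with filterByExpr, scaled with TMM and tested by edgeR's quasi-likelihood method, line being the only term. Calls beyond 2-fold used glmTreat. Gene positions came from RefSeq GRCm38.p6 (99.7% of tested genes matched), lengths from GENCODE M21, promoter sequences from RefSeq for Id2 and Id3. The union-of-exons length was added after seeing the data. Alternatives were DESeq2 size factors, total counts, no filter, a minimum of 1 CPM in 3 libraries, a block for replicate number, omission of each library in turn, DESeq2, limma-voom and removal of the median log2 fold change of genes within 10 Mb. The members and lists were chosen with earlier results of these data known. The text names all members, of each pathway list the called genes with the highest and lowest log2 fold change at 1 CPM or more in the higher line and every gene where 5 or fewer were tested (applied to those tested), Cdh5, Pecam1 and Kdr, and for Id1 and Id3 the 3 genes of most similar pattern. Other genes, marker genes included, were named after their values were seen. Correlations of deviations from the line mean over genes were 0.116, 0.21 and 0.257 for same-numbered libraries 1, 2 and 3 of the lines. UV2 replicate 2 with bEnd.3 replicate 1 gave 0.0783, and the other differently numbered pairs gave -0.275 to -0.0442. The same-numbered values were thus the highest. The labels do not say that the numbers pair libraries, so the main fit was unpaired and the block was an alternative. No library was a copy of another (chi-square per degree of freedom 11.8 to 40.2). Total counts of 21306441 to 28748128 per library set the precision, and a count of 0 allows up to 3 counts; this covers counting error only. The procedure was also run on simulated counts in which far fewer genes differed than were called here. That run therefore does not show how scaling or error control behave in data like these. Fits ran in DESeq2 1.42.0, limma 3.58.1 and edgeR 4.0.16 under R 4.3.3, and plots in matplotlib 3.10.9 under Python 3.11.15.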

Additional observations from a re-analysis of the deposited data

How the results depend on the processing

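Of 126 refits of the 9 tested members under 14 alternatives, 117 kept the direction and the side of the threshold. Id1, Id2, Id3, Tcf3, Lyl1 and Lmo2 did so in all 14, with log2 fold changes of -2.26 to -1.86, -1.52 to -1.19, 3.13 to 3.95, 0.69 to 0.84, 1.78 to 1.90 and -1.30 to -1.15. Tal1 (0.23) was not called with total counts (0.17) or with the median of neighbouring genes removed (0.22), and was 0.19 to 0.30 with single libraries left out. Tcf12 was called higher with the median of neighbouring genes removed (0.34), and Tcf4 turned sign there (0.027) and without bEnd.3 replicate 2 (0.036), with a range of -0.095 to 0.036 over single libraries left out. With the replicate block, a paired fit, the members called were 7, as without it, and Tek was the one pathway gene that changed call. The members called were 6 to 7 and those beyond 2-fold 3 to 5 over all alternatives, the genes called 7793 to 9041 and those beyond 2-fold 1962 to 2751. Of 196 list counts recomputed, 8 moved by over 1.5 times, all counts of 3 or fewer. Beyond the alternatives that remove neighbours, leave out a library or change the length, the causes were not tested. Id4 had too few counts for the test, and no difference was detectable at this depth.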

Other observations

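Genes of the bHLH leucine zipper class also differed in both directions. Of 19 tested genes of the MYC-MAX network and its relatives UV2 had 7 higher and 9 lower, and 3 missed the threshold. Over all tested genes the shares were 33.9% higher and 33.3% lower, so calls in both directions were common to the whole table. The median log2 fold change was -0.36, against -0.01 over all tested genes. Mycn, a MYC family member of embryonic tissue, had 4.57 ± 0.769 CPM in UV2 and 1.63 ± 0.343 CPM in bEnd.3 (SD, n = 3 each) and rose the most (2.82-fold, edgeR adjusted p = 0.000624). Tfec, of the MITF family, fell the most, with 9.76 ± 1.24 CPM in UV2 and 44.1 ± 4.43 CPM in bEnd.3 (log2 fold change -2.18, SE 0.13, edgeR adjusted p = 4.50e-06).

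Among 9196 tested genes averaging 10 CPM or more, the genes most like Id3 over the 6 libraries, by root mean square distance of centred log2 CPM, were Fam84b (0.061), Slc45a4 (0.182) and Il4ra (0.187). Fam84b had 76.7 ± 6.45 CPM in UV2 and 5.26 ± 0.692 CPM in bEnd.3. The genes most like Id1 were Pdk1 (0.104), P2rx3 (0.126) and Gyg (0.127), and Pdk1 had 9.97 ± 0.936 CPM in UV2 and 39.8 ± 5.06 CPM in bEnd.3. With 2 lines the distance is set mostly by the difference between them, and the values are a description of these 6 libraries.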
